A study of Mus musculus with 33 samples.

Results

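Microglia of the cerebellum (Cb) were compared with microglia of the cerebral cortex (Cx) at postnatal day 7 (P7), with 3 RNA-seq libraries from each region. These 6 libraries were selected by the region and age in their labels from a series of 33 libraries, which covers the Cb, the Cx and the corpus callosum (CC) at P7, P10 and P42. All came from untreated wildtype C57BL6 mice (C57BL/6 J in the study's methods) kept pathogen free, and in each P7 group 2 libraries are labelled male and 1 female. The mice were perfused, the regions were dissected, and CD45+, CD11b+, Gr1- cells were sorted by FACS. The sort takes every CD11b+ cell of a region without the Gr1 antigen, so it holds white and grey matter microglia together and does not remove macrophages of the brain borders. The 3 CC libraries of P7 and the 4 libraries per region of P10 and P42 were set beside the P7 values. They also entered the gene filter and the shared fit of all 33 libraries, from which the P7 p-values come. It is not stated in the sources used here whether each library is a separate mouse. The p-values therefore measure the spread between libraries of the same group, estimated over all 9 groups of region and age.

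Microglia are the resident macrophages of the brain. In the first postnatal weeks, a population of amoeboid microglia gathers in the forming white matter, where axons are being wrapped with myelin, and clears cells and debris. This population is known for osteopontin (Spp1), insulin-like growth factor 1 (Igf1), the integrin chain CD11c (Itgax), the beta-glucan receptor dectin-1 (Clec7a) and Gpnmb, a glycoprotein of lysosomes and the cell surface. The same genes mark microglia that have taken up much lipid in ageing or disease, and several of them are called priming genes in the study. At P7 the cerebellum is still making granule cells, and its white matter is myelinating early, while the cortex holds little myelin. The comparison asks how far apart microglia of these regions stand at that age.

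The 6 libraries held 30166700 to 40575511 reads on genes, so that 1 read equals at most 0.0306 CPM (counts-per-million, scaled with edgeR's TMM factors). Each library correlated more strongly with the others of its region (Pearson's r of log2 CPM 0.959 to 0.975, 3 pairs each) than with those of the other region (0.942 to 0.959, 9 pairs), and every pair of replicates differed by more than the sampling noise. Microglial markers (14 genes) summed to between 53205 and 62763 CPM in every library. Cb replicate 1 stood apart in its sex-linked genes. It is labelled male and held 46.9 CPM of the Y-linked gene Ddx3y, yet also 24.5 CPM of Xist, the RNA that coats the inactive X chromosome of female cells. The other male library of the Cb had 0.0282 CPM of Xist and the female one 164 CPM. Counts are therefore also given without this library. RNA of other cells was low but uneven. Markers of cerebellar neurons (13 genes) summed to 26.6, 19.5 and 10.8 CPM in the Cb against 0.429 to 1.89 CPM in the Cx, with the granule cell factor Neurod1 at 14.0, 7.72 and 5.28 CPM in the Cb. Oligodendrocyte markers (12 genes, mostly Cnp and Mbp) summed to 335, 188 and 196 CPM in the Cb and 137 to 166 CPM in the Cx. Markers of oligodendrocyte precursors (6 genes) summed to 7.61, 1.66 and 1.20 CPM in the Cb and 0.337 to 1.95 CPM in the Cx. General neuron markers (9 genes) summed to 48.5, 34.6 and 21.5 CPM in the Cb and 15.3 to 26.3 CPM in the Cx. Haemoglobin and other red cell genes (6 genes) reached 0.748, 87.0 and 22.6 CPM in the Cb and at most 0.840 CPM in the Cx. Neutrophil genes stayed under 2.53 CPM and monocyte genes under 18.8 CPM in all 6 libraries, with the monocyte gene Ly6c2 at or near 0. Of the markers of other cells, Cldn11 (0.156 to 2.53 CPM in the Cb, 0 reads in the Cx) and the astrocyte transporter Slc1a3 (74.6, 76.3 and 57.0 CPM in the Cb and 36.9, 35.3 and 48.9 CPM in the Cx) passed an adjusted p of 0.05. The part of these cells in the results below was not tested.

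At P7, 63 of 20917 genes differed between the regions at an adjusted p of at most 0.01 (edgeR's quasi-likelihood test, Benjamini-Hochberg) and a change of at least 1 on the log2 scale, which is 0.301% of the genes tested. Of these, 52 were higher (0.249%) and 11 lower (0.0526%) in the Cb. These are called genes in the following. At an adjusted p of 0.05 without a fold limit, 224 genes were higher (1.07%) and 86 lower (0.411%). All 63 called genes had 3 Cb libraries on one side of 3 Cx libraries, as did 17.7% of all genes tested. Leaving out each of the 6 libraries in turn kept 34 of the 63 calls every time, and the other 29 were lost at least once. Without Cb replicate 1, 48 genes were called, 46 of them among the 63. All 63 kept their sign in every fit that was run, which groups without overlap could hardly fail to do. DESeq2 called 112 genes including all 63, and a fit of only the 6 libraries called 127, of which 66.9% were higher in the Cb against 82.5% here. In all these comparisons of bulk samples, more RNA per cell and more cells with that RNA cannot be told apart.

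**Figure D1:**
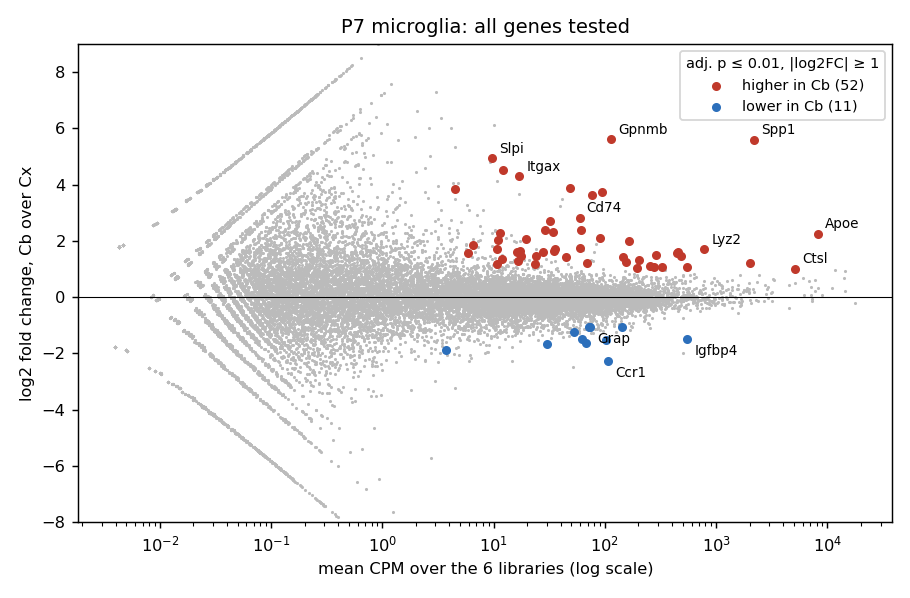
Log2 fold change between cerebellar and cortical microglia at P7 (vertical axis) against the mean level of each gene in CPM over the 6 libraries (horizontal log axis). Red and blue points are the 52 and 11 called genes, grey points the other genes with at least 1 read (2 lie outside the axes). Most called genes lie above 0 and above 10 CPM, and Spp1 and Gpnmb stand highest among them.

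The largest fold changes among the called genes were those of Gpnmb and Spp1. Spp1, a secreted matrix protein that binds integrins (chr5:104435118-104441050, GRCm38), was counted at 2825, 3814 and 6228 CPM in the Cb and 79.7, 97.7 and 88.6 CPM in the Cx. Gpnmb (chr6:49036546-49070929) was counted at 141, 238 and 285 CPM in the Cb and 7.71, 3.08 and 2.76 CPM in the Cx. Every Cb library of both genes exceeded every Cx library by more than an order of magnitude, and both rose in the Cb (log2 fold change 5.60 ± 0.84 (SE), adjusted p = 0.00012 for Spp1, and log2 fold change 5.62 ± 0.97 (SE), adjusted p = 0.00068 for Gpnmb). The Cb libraries also differed among themselves, with replicate 1 lowest and replicate 3 highest for both genes. The call of Gpnmb was lost without Cx replicate 2 (adjusted p = 0.01, just above the limit) or Cx replicate 3 (adjusted p = 0.012), and that of Spp1 was lost with limma-voom (log2 fold change 5.51, adjusted p = 0.27).

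Igf1, a growth factor for neurons and oligodendrocytes, was measured at 154, 173 and 197 CPM in the Cb and 10.5, 13.3 and 15.2 CPM in the Cx. Clec7a, which binds fungal beta-glucans and signals through Syk, was measured at 137, 131 and 155 CPM in the Cb and 11.1, 11.9 and 10.8 CPM in the Cx. Itgax had 26.5, 35.8 and 34.6 CPM in the Cb and 1.95, 2.18 and 0.735 CPM in the Cx. These 3 genes rose in the Cb by log2 fold changes of 3.75 ± 0.54, 3.65 ± 0.31 and 4.31 ± 0.54 (SE), and kept the call in every fit run. Clec7a showed the tightest separation of the 3 (adjusted p = 4.6e-09).

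Other large increases were in genes of varied roles. Slpi, a secreted inhibitor of neutrophil elastase, was at 22.3, 13.7 and 20.0 CPM in the Cb and 0.780, 0.956 and 0.0613 CPM in the Cx (log2 fold change 4.93 ± 0.90 (SE), adjusted p = 0.0027). Cx replicate 3 lay lowest, and the call was lost without Cx replicate 1 (adjusted p = 0.017) or Cx replicate 3 (adjusted p = 0.018). Fam20c, a kinase that phosphorylates secreted proteins including osteopontin, was at 18.9, 20.2 and 31.3 CPM in the Cb and 0.300, 1.96 and 0.796 CPM in the Cx (log2 fold change 4.50 ± 0.76 (SE), adjusted p = 0.00055). Lag3, an inhibitory receptor known from T cells, was at 55.0, 61.7 and 52.6 CPM in the Cb and 12.1, 12.1 and 10.0 CPM in the Cx (log2 fold change 2.31 ± 0.21 (SE), adjusted p = 1.5e-08). Crip1, a small LIM-domain protein, was at 13.0, 17.8 and 26.0 CPM in the Cb and 5.25, 3.90 and 2.39 CPM in the Cx (log2 fold change 2.30 ± 0.33 (SE), adjusted p = 7.2e-05). Plaur, the urokinase receptor, had a log2 fold change of 2.07 ± 0.42, but was lost without any of the 6 libraries other than Cb replicate 2 (adjusted p 0.013 to 0.044).

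**Figure D2:**
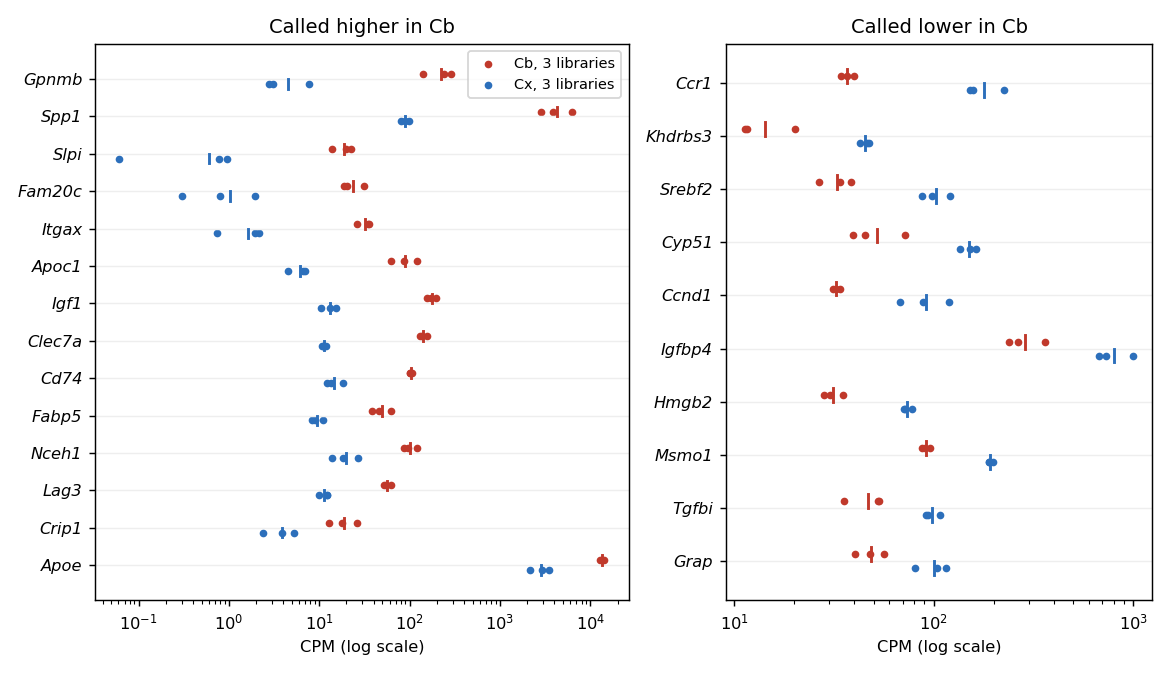
CPM in each of the 3 Cb (red) and 3 Cx (blue) libraries for 14 of the 15 called genes with the largest increase and the 10 with the largest decrease at a mean of 10 CPM or more, on log axes. Each point is 1 library and each vertical tick the group mean. No gene has overlapping groups, and the Cx libraries of Slpi and Fam20c spread the most.

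Of the 12 priming genes that the study names, 7 were higher in the Cb at an adjusted p of 0.05 (the share of all genes tested was 1.07%) and none was lower. The median log2 fold change of the list was 3.09, against -0.01 over all genes tested. The names were taken from the study's account of these libraries, so the direction of the list is not independent evidence. The 7 were Spp1, Gpnmb, Clec7a, Itgax, Igf1, Anxa5 and Lgals3. The values here are RNA, and the study's protein stainings differ from them in part. It found CLEC7A and CD206 (Mrc1) in no white matter microglia of the Cb at any age. SPP1 was seen there only in single cells or patches at P7, and none of these proteins was found in cortical microglia. Anxa5, which binds exposed phosphatidylserine, was at 184, 197 and 251 CPM in the Cb and 75.5, 84.7 and 75.9 CPM in the Cx (log2 fold change 1.42 ± 0.22 (SE), adjusted p = 0.00012). Lgals3, the lectin galectin-3, was at 18.7, 27.5 and 47.0 CPM in the Cb and 1.44, 2.01 and 3.95 CPM in the Cx and missed the stricter limit (log2 fold change 3.66 ± 0.81 (SE), adjusted p = 0.011). The receptor tyrosine kinase Axl did not pass, with 90.7, 117 and 125 CPM in the Cb and 46.1, 52.4 and 39.4 CPM in the Cx (log2 fold change 1.27 ± 0.37 (SE), adjusted p = 0.095). Cd36, F13a1 and Gas7 did not pass either: Cd36 stood at 0.89 on the log2 scale (adjusted p = 1), F13a1 at 2.54 (adjusted p = 0.81) and Gas7 at 0.67 (adjusted p = 0.85).

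Mrc1, the mannose receptor CD206, stood against the rest of the priming genes. It was counted at 233, 195 and 177 CPM in the Cb and 796, 684 and 905 CPM in the Cx, so that each Cx library held more than each Cb library, with a log2 fold change of -1.98 ± 0.55 that did not pass (adjusted p = 0.075). It was called with limma-voom (adjusted p = 6.3e-09) and in the fit of only the 6 libraries (adjusted p = 7.1e-05). Mrc1 is also a marker of macrophages at the borders of the brain. The summed level of 16 border macrophage markers, Mrc1 among them, was 530 to 623 CPM in the Cb and 1046 to 1227 CPM in the Cx. Mrc1 alone made up most of the sum in each Cx library, so the gap between the sums is mainly that of Mrc1. None of the 16 passed the test, and their levels were mixed. In 6 of them (Lyve1, F13a1, Folr2, Siglec1, Ms4a7 and Cd209f, each at or below 18.3 CPM) all Cb libraries lay above all Cx libraries, and in 3 (Mrc1, Lilra5 and Cbr2) all lay below. Over all genes tested, these shares were 7.95% and 9.71%. The log2 fold changes of Lilra5 and Cbr2 were -0.43 and -0.84. The other 7, Stab1 with the highest level among them, had overlapping groups. Of the 5 phagocytosis genes named in the study, the cholesterol exporter Abca1 rose, and Cd36, Gsn, Grk6 and Scarb1 did not pass (log2 fold changes 0.89, 0.81, -0.51 and 0.28).

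The wider set of genes known from microglia of axon tracts moved together. Of 30 such genes, 25 were higher in the Cb and none lower at an adjusted p of 0.05 (1.07% and 0.411% of all genes tested). Their median log2 fold change was 1.64, and all 30 had a value above 0. The list holds the 7 priming genes that passed and none of the 5 that did not. It was written with earlier results of these data known, so its direction is not independent evidence. Besides those named above, the chemokine Ccl9, the cystatin Cst7, the fatty acid carrier Fabp5, the growth factor of microglia Csf1, the galectin Lgals1 and the annexin Anxa2 rose. The chemokine Ccl6, which is not on this list, rose too. Ccl6 was at 697, 668 and 647 CPM in the Cb and 225, 254 and 200.1 CPM in the Cx and Ccl9 at 371, 456 and 435 CPM in the Cb and 152, 153 and 143 CPM in the Cx. Both chemokines separated the regions with little spread (log2 fold change 1.57 ± 0.12 (SE), adjusted p = 4.8e-10 for Ccl6, and log2 fold change 1.49 ± 0.15 (SE), adjusted p = 1.5e-07 for Ccl9). Cst7, an inhibitor of lysosomal proteases, was at 49.7, 58.1 and 56.2 CPM in the Cb and 17.1, 17.1 and 15.4 CPM in the Cx (log2 fold change 1.72 ± 0.28 (SE), adjusted p = 0.00033). Fabp5 had a log2 fold change of 2.37 ± 0.51 but lost its call without any 1 of the 6 libraries (adjusted p 0.015 to 0.066). Trem2, the lipid-sensing receptor of microglia, rose by less (log2 fold change 0.60 ± 0.10 (SE), adjusted p = 0.00049). The 5 members that did not pass were Cd68, Mamdc2, Postn, Gpx3 and Atp6v0d2, of which the macrophage glycoprotein Cd68 had overlapping libraries (log2 fold change 0.18 ± 0.09, adjusted p = 0.56). Leaving out 1 of the 6 libraries gave a count of 19 (without Cb replicate 3) to 24 (without Cb replicate 1) of 30.

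Genes of resting microglia differed by small amounts between the regions, more often upward in the Cb than downward. Of 26 homeostatic genes, 5 were higher and none lower at an adjusted p of 0.05 (1.07% and 0.411% of all genes tested). The median log2 fold change was 0.10. Their summed level was 87512 to 92702 CPM in the Cb and 74610 to 81490 CPM in the Cx. In 7 of them every Cb library lay above every Cx library (7.95% of all genes tested). A value below 0 was found in 11 of them. Slc2a5, Golm1 and Gpr84 had every Cb library below every Cx library, as did 9.71% of all genes tested. None of these 3 passed (adjusted p 0.19, 0.51 and 0.21). With the replicate number as a block 1 gene passed as lower, and limma-voom passed 2 as higher. P2ry12, the purine receptor that guides microglial processes, was at 7281, 7181 and 6743 CPM in the Cb and 6708, 7413 and 8219 CPM in the Cx with overlapping groups (log2 fold change -0.08 ± 0.10 (SE), adjusted p = 0.99). Tmem119 (-0.20 ± 0.11, adjusted p = 0.65) and the fractalkine receptor Cx3cr1 (0.13 ± 0.06, adjusted p = 0.56) overlapped between the regions as well. The 5 that rose were the cysteine protease inhibitor Cst3, the TGF-beta receptor Tgfbr2, the engulfment receptor Mertk, the matrix protein Sparc and the growth factor receptor Csf1r. Mertk showed the largest of these changes (log2 fold change 0.72 ± 0.13 (SE), adjusted p = 0.0015).

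**Figure D3:**
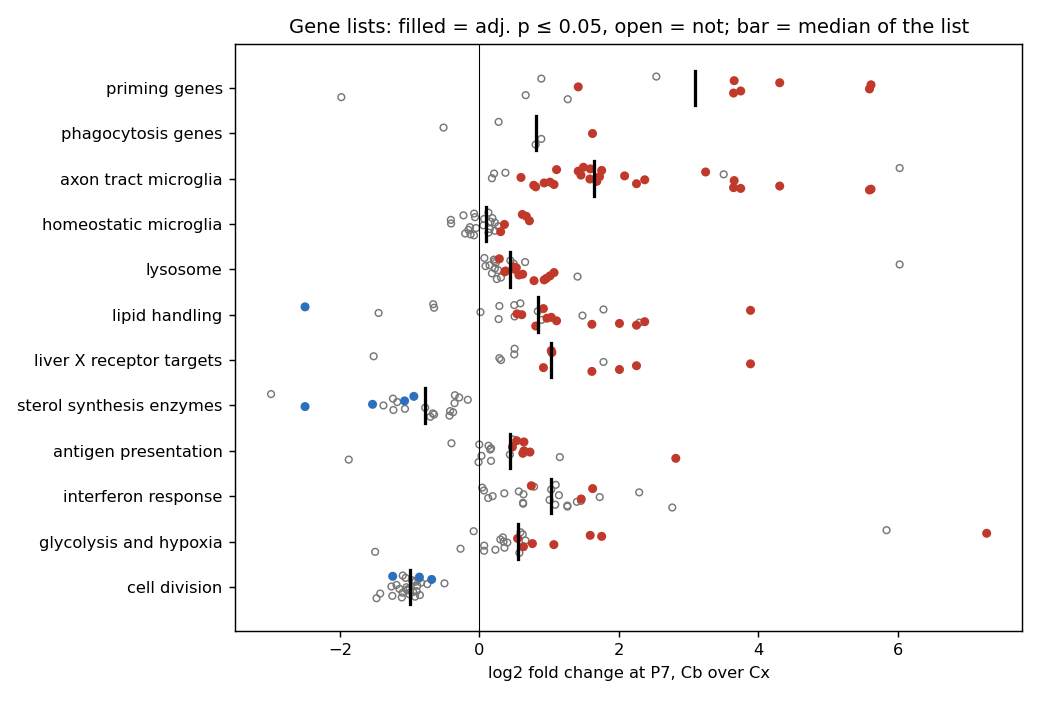
Log2 fold change between the Cb and Cx at P7 (horizontal axis) for the members of 12 gene lists, 1 point per gene. Filled points passed an adjusted p of 0.05, open points did not, and black bars are list medians. Axon tract and lysosome members lie above 0 throughout, homeostatic genes lie around 0, and sterol synthesis and cell division genes lie below 0.

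Lysosomal genes rose in part and by small amounts. Of 29 genes for lysosomal enzymes, membrane proteins and the proton pump, 13 were higher in the Cb and none lower at an adjusted p of 0.05. The shares of all genes tested were 1.07% and 0.411%. The median log2 fold change of the list was 0.45. All 29 had a value above 0, and in 23 the libraries did not overlap (7.95% of all genes tested had every Cb library above every Cx library). The summed level of the 29 genes was between 103547 and 105351 CPM in the Cb and between 65712 and 77498 CPM in the Cx. Among the proteases, cathepsin D (Ctsd) was at 15373, 14641 and 16051 CPM in the Cb and 7549.9, 9139 and 6911 CPM in the Cx (log2 fold change 0.96 ± 0.08 (SE), adjusted p = 2.9e-09), cathepsin B (Ctsb) had 18056, 18704 and 19277 CPM in the Cb and 8802, 11325 and 9273 CPM in the Cx (log2 fold change 0.93 ± 0.07 (SE), adjusted p = 8.4e-10), and cathepsin L (Ctsl) had 6543, 7092 and 6976 CPM in the Cb and 3499, 3455 and 3245 CPM in the Cx (log2 fold change 1.02 ± 0.08 (SE), adjusted p = 3.2e-10). Ctsd and Ctsb stayed just under the fold limit of a called gene, and Ctsl stood just above it and fell to 0.9999 without Cb replicate 2. Hexa, Grn, Ctsa, Ctsz, Ctss, Lamp1, Lamp2, Man2b1, Gaa and the tetraspanin Cd63 rose too, by log2 fold changes of 0.29 (Man2b1) to 1.07 (Cd63, a called gene that fell to 0.995 without Cx replicate 3). Laptm5, Gusb and Neu1 had overlapping libraries and did not pass (log2 fold changes 0.07, 0.09 and 0.21). Leaving out 1 of the 6 libraries, 11 to 13 of the 29 passed (11 without Cb replicate 1).

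The promoters of some of these genes hold the palindrome CACGTG, the core of the element bound by TFEB, the factor that controls lysosomal genes, and by many other factors of the same class. In RefSeq's 250 bases before the gene start (GRCm38.p6), 6 of the 24 lysosomal genes with a promoter in the table held it, against 9.29% of the 12094 tested genes with a promoter, and 5 of the 41 genes called higher did. The motif reads the same on both strands. Ctsd and Lamp1 are shown because they belong to the lysosomal genes that rose and carry it more than once, and capitals mark the motif. Each is read 5′ to 3′ on the strand of its gene, from chr7:142387828-142388077 (minus strand) and chr8:13158911-13159160 (plus strand).
Ctsd: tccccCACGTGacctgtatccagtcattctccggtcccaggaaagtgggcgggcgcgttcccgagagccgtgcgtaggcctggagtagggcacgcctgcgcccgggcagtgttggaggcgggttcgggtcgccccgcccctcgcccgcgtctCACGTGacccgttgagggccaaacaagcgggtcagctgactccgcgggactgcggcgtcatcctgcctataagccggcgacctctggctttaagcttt
Lamp1: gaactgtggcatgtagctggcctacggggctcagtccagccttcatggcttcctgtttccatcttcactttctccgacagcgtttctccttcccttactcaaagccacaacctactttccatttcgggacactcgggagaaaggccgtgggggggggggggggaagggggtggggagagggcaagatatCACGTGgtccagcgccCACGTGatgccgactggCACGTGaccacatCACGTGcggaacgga
The 2 matches in Ctsd begin 245 and 98 bases before the start, and the 4 in Lamp1 lie within 61 bases of it. A match describes the letters in this window and shows neither binding nor a cause of the difference.

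Cholesterol genes split into a rising and a falling arm. The carrier of lipids Apoe was counted at 12897, 13603 and 14259 CPM in the Cb and 2919, 3452 and 2170.3 CPM in the Cx and its neighbour Apoc1 at 62.7, 121 and 86.0 CPM in the Cb and 6.66, 7.03 and 4.50 CPM in the Cx. Both rose in the Cb (log2 fold change 2.25 ± 0.25 (SE), adjusted p = 6.9e-07 for Apoe, and log2 fold change 3.89 ± 0.52 (SE), adjusted p = 2.1e-05 for Apoc1). The exporters Abca1 and Abcg1 load cholesterol onto such particles. Abca1 was at 728, 738 and 579 CPM in the Cb and 199.9, 193 and 275 CPM in the Cx (log2 fold change 1.62 ± 0.21 (SE), adjusted p = 1.0e-05), and Abcg1 at 242, 273 and 274 CPM in the Cb and 76.3, 67.0 and 52.6 CPM in the Cx (log2 fold change 2.01 ± 0.13 (SE), adjusted p = 5.3e-11). In both exporters the lowest Cb library lay well above the highest Cx library. Of 14 known targets of the liver X receptors, the sterol-activated factors that drive export, 7 were higher and none lower (Apoe, Apoc1, Abca1, Abcg1, Mylip, Smpdl3a and Myo1e), with a median log2 fold change of 1.03. At this limit, an adjusted p of 0.05, 1.07% of all genes tested were higher and 0.411% lower. The targets Srebf1 and Scd2 did not pass (0.29 for Srebf1 with an adjusted p of 0.81, 0.50 for Scd2 with 0.15). Leaving out 1 of the 6 libraries, 5 or 6 of the 14 passed (5 without Cb replicate 1). Apoe kept its call without each of the 6 libraries but lost it with limma-voom (log2 fold change 2.22, adjusted p = 0.67).

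Of 28 lipid handling genes, 12 were higher in the Cb at an adjusted p of 0.05 (1.07% of all genes tested), the exporters among them. Sqle was lower (0.411% of all genes tested), and did not pass without any 1 of the 6 libraries. Nceh1, which hydrolyses cholesteryl ester and is not on that list, was among the largest increases, at 87.2, 95.4 and 122 CPM in the Cb and 13.9, 18.1 and 26.9 CPM in the Cx (log2 fold change 2.37 ± 0.32 (SE), adjusted p = 2.5e-05). Of the list, Soat1, which makes cholesteryl ester, was at 248, 252 and 275 CPM in the Cb and 119, 135 and 126 CPM in the Cx (log2 fold change 1.03 ± 0.11 (SE), adjusted p = 2.8e-07), and the lipid droplet coat protein Plin2 at 309, 343 and 386 CPM in the Cb and 165, 176 and 141 CPM in the Cx (log2 fold change 1.11 ± 0.19 (SE), adjusted p = 0.00063). The lysosomal lipase Lipa (log2 fold change 0.97 ± 0.11 (SE), adjusted p = 8.5e-07) and the proteins that move cholesterol out of lysosomes, Npc1 (log2 fold change 0.61 ± 0.11 (SE), adjusted p = 0.0011) and Npc2 (log2 fold change 0.54 ± 0.08 (SE), adjusted p = 4.7e-05), rose by less than the fold limit. In these 6 genes every Cb library exceeded every Cx library.

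Genes that make cholesterol lay on the other side. Srebf2, the factor that switches on sterol synthesis and uptake, was at 38.5, 26.7 and 33.8 CPM in the Cb and 98.6, 121 and 87.4 CPM in the Cx and fell in the Cb (log2 fold change -1.63 ± 0.21 (SE), adjusted p = 1.1e-05), a call kept in every fit run. The enzymes Cyp51 (71.6, 45.1 and 39.5 CPM in the Cb and 136, 153 and 163 CPM in the Cx) and Msmo1 (96.1, 90.6 and 87.5 CPM in the Cb and 198, 189 and 189 CPM in the Cx) act in the same stretch of the pathway after lanosterol. Both fell, by 1.53 ± 0.33 and 1.07 ± 0.22 on the log2 scale. Both calls were fragile, since leaving out any 1 of the 6 libraries ended them (adjusted p 0.01 to 0.12 for Cyp51, and 0.016 to 0.041 for Msmo1). Squalene epoxidase (Sqle) was at 20.7, 10.4 and 15.3 CPM in the Cb and 84.9, 87.9 and 90.0 CPM in the Cx and Sc5d at 30.1, 32.6 and 30.7 CPM in the Cb and 54.1, 68.0 and 56.8 CPM in the Cx. At an adjusted p of 0.05 these also fell (log2 fold changes -2.50 and -0.94). Of 21 enzymes from acetoacetyl-CoA to cholesterol, 4 were lower (the share of all genes tested was 0.411%) and none higher, with a median log2 fold change of -0.78. All 21 had a value below 0, and 18 had every Cb library below every Cx library, as did 9.71% of all genes. Their summed level was 679 to 770 CPM in the Cb and 1265 to 1354 CPM in the Cx. Of 7 sterol sensing and uptake genes, Srebf2 alone passed. Leaving out any 1 of the 6 libraries, 1 or 2 of the 21 enzymes passed (2 without Cb replicate 1). This list, the list of sterol sensing genes and the list of liver X receptor targets were written after the values of Srebf2 and Cyp51 had been seen.

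**Figure D4:**
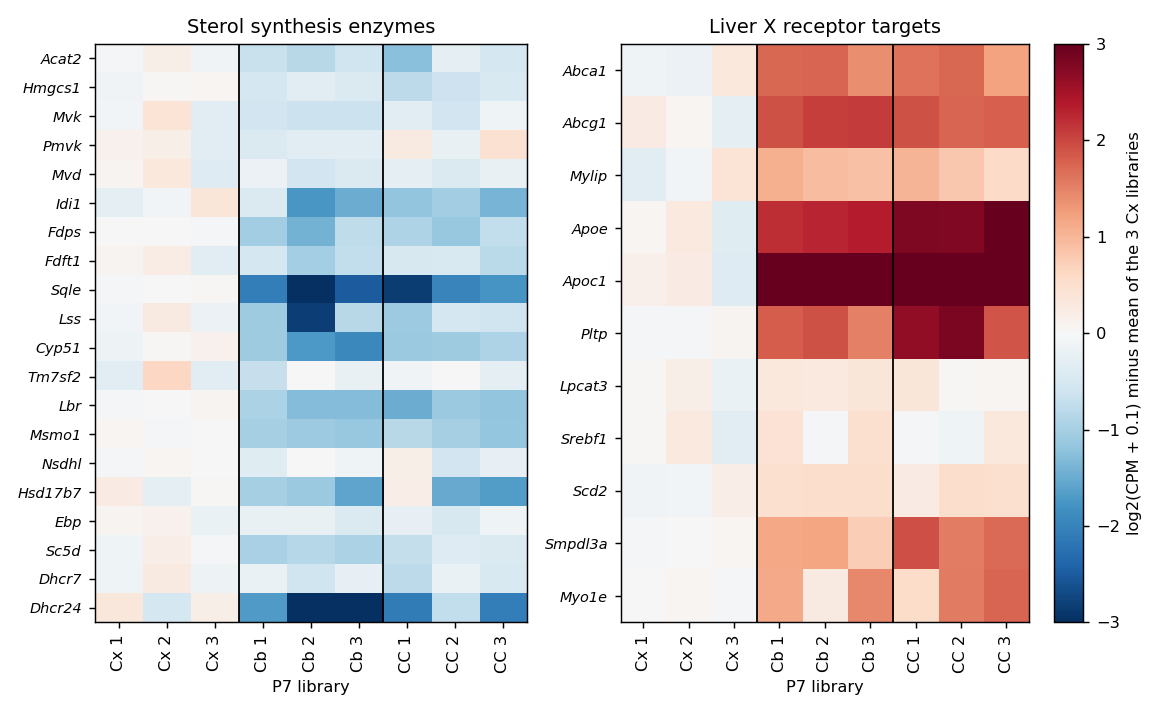
Heatmap of 20 of the 21 sterol synthesis enzymes (left) and of the 11 liver X receptor targets with a mean of at least 1 CPM in the Cb or Cx (right) in the 9 P7 libraries. Colour is log2(CPM + 0.1) minus the mean of the 3 Cx libraries, red for higher and blue for lower. In the Cb libraries most enzymes are blue and Abca1, Abcg1, Apoe and Apoc1 are red in each library, and the CC libraries are drawn beside them.

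Promoters of sterol synthesis genes are known for CCAAT boxes, which bind the factor NF-Y beside SREBP. Of 16 sterol enzymes with a promoter in the table, 15 held CCAAT or its complement ATTGG in the 250 bases before the start, against 39.9% of the tested genes with a promoter. The same letters stood in 22 of 24 cell division genes, 10 of 24 lysosomal genes and 13 of 41 genes called higher. The sterol element TCACNCCAC was found in 1 of the 16 enzymes (1.28% of tested genes). Cyp51 and Srebf2 are shown because both were called lower, with capitals on the CCAAT box (written ATTGG where it lies on the other strand). They are read 5′ to 3′ on the strand of the gene from chr5:4104698-4104947 (minus strand) and chr15:82147019-82147268 (plus strand).
Cyp51: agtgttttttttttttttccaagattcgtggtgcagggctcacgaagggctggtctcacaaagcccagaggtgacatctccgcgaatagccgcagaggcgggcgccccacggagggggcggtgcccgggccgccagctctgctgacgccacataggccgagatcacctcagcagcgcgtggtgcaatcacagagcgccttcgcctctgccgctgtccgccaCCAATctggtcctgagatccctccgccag
Srebf2: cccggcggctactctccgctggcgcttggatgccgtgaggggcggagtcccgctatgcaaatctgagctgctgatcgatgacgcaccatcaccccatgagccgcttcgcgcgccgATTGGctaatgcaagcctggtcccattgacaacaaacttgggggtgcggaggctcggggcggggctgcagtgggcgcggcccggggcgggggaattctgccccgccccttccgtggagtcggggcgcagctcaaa
The box of Cyp51 begins 29 and that of Srebf2 135 bases before RefSeq's start. In the annotation used for the counts, Cyp51 starts further upstream, at base 4104746, so its box lies within the counted gene. These motifs were chosen after the values were seen.

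Antigen presentation genes rose in part. Cd74, the invariant chain of MHC class II, was at 101, 102 and 107 CPM in the Cb and 13.4, 18.4 and 12.3 CPM in the Cx (log2 fold change 2.82 ± 0.38 (SE), adjusted p = 2.4e-05), with every Cb library more than 5 times above every Cx library. The class II chains it accompanies stayed low: H2-Aa and H2-Eb1 had at most 0.542 CPM in any of the 6 libraries, and H2-Ab1 was at 18.5, 15.7 and 24.3 CPM in the Cb and 18.1, 22.7 and 11.2 CPM in the Cx (log2 fold change 0.17 ± 0.28 (SE), adjusted p = 1). Of 19 genes of the list, 7 were higher and none lower (1.07% and 0.411% of all genes tested), with a median log2 fold change of 0.44. Besides Cd74 these were the class I chains H2-K1, H2-D1 and B2m, the loading protein Tapbp, and the costimulatory proteins Cd83 and Cd86, with log2 fold changes of 0.48 (Tapbp) to 0.73 (H2-D1). Class I genes form a family of close relatives, and reads that mapped to several places were discarded by the authors, so their counts are uncertain.

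Few interferon-induced genes passed the test, although most had higher levels in the Cb. Of 26 genes, 3 passed (Rtp4, Ifitm3 and Trim30a), all higher (1.07% of all genes tested), and 17 had every Cb library above every Cx library (7.95%). The median log2 fold change was 1.03. Rtp4 was at 46.5, 60.4 and 51.8 CPM in the Cb and 12.9, 19.0 and 19.6 CPM in the Cx (log2 fold change 1.63 ± 0.31 (SE), adjusted p = 0.0026), and Ifitm3, which blocks virus entry, at 28.6, 27.7 and 21.7 CPM in the Cb and 9.75, 10.3 and 8.21 CPM in the Cx (log2 fold change 1.46 ± 0.32 (SE), adjusted p = 0.009). The call of Rtp4 was lost without Cb replicate 2 (adjusted p = 0.015) or Cx replicate 1 (adjusted p = 0.03), and that of Ifitm3 without any 1 library (adjusted p 0.014 to 0.062). Ifit1 (2.22, 8.74 and 5.70 CPM in the Cb and 0.540, 1.24 and 0.643 CPM in the Cx), Oasl2 and Isg15 did not pass (adjusted p 0.54, 0.66 and 0.66). DESeq2 passed 9 of the 26 and the fit of only the 6 libraries 8.

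Cell division genes had lower levels in every Cb library, and few passed the test. In all 30 genes of the list each Cb library lay below each Cx library (9.71% of all genes tested), and the median log2 fold change was -1.001. Mki67, the proliferation marker, was at 57.2, 70.2 and 42.8 CPM in the Cb and 179, 133 and 161 CPM in the Cx, and the cyclin-dependent kinase Cdk1 at 133, 120.1 and 117 CPM in the Cb and 241, 229 and 231 CPM in the Cx. The summed level of the 30 genes was 2178 to 2327 CPM in the Cb and 4239 to 4601 CPM in the Cx, with no overlap. In the model of all 9 groups, only Pcna (log2 fold change -0.68 ± 0.15 (SE), adjusted p = 0.0095), Tyms (log2 fold change -0.86 ± 0.19 (SE), adjusted p = 0.0095) and Hmgb2 (log2 fold change -1.24 ± 0.22 (SE), adjusted p = 0.0011) passed as lower at 0.05, where 0.411% of all genes did (Hmgb2, the one of these called, lost its call without Cb replicate 1, Cb replicate 3 or Cx replicate 3, adjusted p 0.012 to 0.022). Mki67 did not pass (log2 fold change -1.47 ± 0.53, adjusted p = 0.28). The fit of only the 6 libraries passed 29 of the 30 and limma-voom 26, while DESeq2 passed 5 and the fits without Cb replicate 1 or Cb replicate 2 passed 1. Cyclin D1 (Ccnd1), which drives entry into the cycle, fell as well (34.1, 32.4 and 31.2 CPM in the Cb and 119, 88.0 and 67.7 CPM in the Cx, log2 fold change -1.49 ± 0.27 (SE), adjusted p = 0.0013). Its call was lost without Cb replicate 2 (adjusted p = 0.01), Cb replicate 3 (adjusted p = 0.015) or Cx replicate 1 (adjusted p = 0.022).

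Further genes that were lower in the Cb had varied roles. Ccr1, a receptor for inflammatory chemokines, was at 34.4, 40.1 and 36.6 CPM in the Cb and 152, 158 and 225 CPM in the Cx (log2 fold change -2.27 ± 0.48 (SE), adjusted p = 0.0081), and lost its call without any 1 of the libraries (adjusted p 0.015 to 0.056). Igfbp4, which binds insulin-like growth factors, was at 361, 238 and 266 CPM in the Cb and 677, 998 and 733 CPM in the Cx (log2 fold change -1.48 ± 0.17 (SE), adjusted p = 1.4e-06). It thus moved against Igf1, which was higher in the same Cb libraries. Khdrbs3, an RNA-binding protein that regulates splicing, was at 20.1, 11.4 and 11.7 CPM in the Cb and 42.5, 46.2 and 47.3 CPM in the Cx (log2 fold change -1.66 ± 0.24 (SE), adjusted p = 7.5e-05). Tgfbi, a matrix protein induced by TGF-beta, was at 53.1, 35.4 and 52.4 CPM in the Cb and 107, 91.2 and 94.3 CPM in the Cx (log2 fold change -1.05 ± 0.18 (SE), adjusted p = 0.00086), and Grap, an adaptor of the Ras pathway, at 56.7, 40.4 and 48.0 CPM in the Cb and 115, 104 and 80.5 CPM in the Cx (log2 fold change -1.05 ± 0.17 (SE), adjusted p = 0.00048). Tgfbi and Grap stood near the fold limit and lost the call without Cb replicate 2 (log2 fold changes -0.88 and -0.92) or Cx replicate 1 (-0.95 and -0.90), and Grap also without Cx replicate 2 (-0.99). Hes1, a target of Notch, was low in all libraries (2.19, 1.86 and 0.728 CPM in the Cb and 5.34, 6.05 and 6.22 CPM in the Cx) and also lost its call without any 1 of them.

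Regulators, metabolic genes and receptors added smaller groups. The counts below are at an adjusted p of 0.05, where 1.07% of all genes tested were higher and 0.411% lower. Of 38 transcription factors of macrophages, 4 were higher and none lower, among them Cebpa (log2 fold change 0.99 ± 0.15), Sall3 (0.81 ± 0.17) and Irf8 (0.46 ± 0.10). The microglial factor Sall1 overlapped between the regions (0.15 ± 0.10, adjusted p = 0.79). Of 23 genes of glycolysis and the hypoxia response, 7 were higher, among them the lactate exporter Slc16a3 (90.3, 78.2 and 105 CPM in the Cb and 24.4, 33.1 and 23.5 CPM in the Cx, log2 fold change 1.76 ± 0.19 (SE), adjusted p = 7.3e-07), Aldoa (1.07 ± 0.12) and the mitophagy receptor Bnip3 (1.59 ± 0.26). The oxygen sensor Egln3 was at 3.10, 5.64 and 9.18 CPM in the Cb and 0, 0.0956 and 0 CPM in the Cx. Aldoa slipped to 0.99 without Cx replicate 3. Of 20 proteases and their inhibitors, 8 were higher and none lower, with the largest folds in Slpi, Plaur and Cst7, and with Serpine2, an inhibitor of thrombin, at 2702, 3035 and 2779.8 CPM in the Cb and 1080.1, 1355 and 1221 CPM in the Cx (log2 fold change 1.22 ± 0.07 (SE), adjusted p = 1.1e-11). Of 36 phagocytic receptors and bridging molecules, 6 were higher (Clec7a, Mertk, Fcgr2b, Trem2, Itgam and Fcgr3). Of 17 complement genes, 3 were higher (C1qa, Itgam and Itgax), and of 23 chemokines and cytokines 4 (Ccl6, Ccl9, Csf1 and Ccl3). Of 29 adhesion and matrix genes 5 were higher and Mmp2 and Tgfbi lower, and of 22 chemokine receptor and migration genes Plaur was higher and Ccr1 lower. Of 23 growth factors Igf1 and Pdgfa were higher and Igfbp4 lower, and of 26 BMP and TGF-beta genes Tgfbr2 was higher. Several of these counts rested on single libraries. Without Cx replicate 1, Cx replicate 3 or Cb replicate 3 the 7 genes of glycolysis and hypoxia became 4, and the 4 chemokines and cytokines became 2. The 4 transcription factors became 2 without Cx replicate 3 or Cb replicate 1, and the 2 growth factors that were higher became 1 without Cx replicate 1, Cx replicate 3, Cb replicate 1 or Cb replicate 3. Of the 2 adhesion and matrix genes that were lower, 1 passed without any library other than Cb replicate 1. Ccr1 did not pass at 0.05 without Cb replicate 1 or Cb replicate 3. Cd34, a sialomucin of stem cells and some microglia, was at 214, 229 and 208 CPM in the Cb and 76.9, 94.1 and 101 CPM in the Cx (log2 fold change 1.26 ± 0.13 (SE), adjusted p = 1.5e-07), and the lysozyme gene Lyz2 at 1068, 1239 and 1276 CPM in the Cb and 372, 378 and 349 CPM in the Cx (log2 fold change 1.71 ± 0.15 (SE), adjusted p = 1.5e-08).

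Of 22 genes that respond early to tissue dissociation, 3 were higher in the Cb (Atf3, Egr1 and Btg2) and none lower. The shares of all genes tested were 1.07% and 0.411%. The summed level of the 22 genes was 686 to 806 CPM in the Cb and 576 to 729 CPM in the Cx. Atf3 was among the called genes (43.4, 28.4 and 34.3 CPM in the Cb and 14.6, 10.6 and 13.2 CPM in the Cx, log2 fold change 1.46 ± 0.30 (SE), adjusted p = 0.0051) but lost the call without any library other than Cb replicate 2 (adjusted p 0.014 to 0.039). Exons of 14 called genes overlap another annotated gene, among them Spp1, Slpi, Cd74, Ccnd1, Cyp51, Aldoa, Rtp4, Bnip3, Cd34 and Grap. Reads in the shared stretch were discarded by the authors, so these counts leave it out. Lyz2, Ifitm3 and Pirb have close relatives in the genome, and reads that mapped to several places were discarded too.

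The regional difference was then followed in other mice. At P10, 23 of the 63 genes were called again in the same direction (21 higher and 2 lower in the Cb, where 31 of 20917 genes were called, 0.148%, with 0.129% higher and 0.0191% lower), and 61 of 63 kept the sign. At P42, 13 were called again in the same direction (12 higher and 1 lower, where 120 genes were called, 0.574%, with 0.402% higher and 0.172% lower), and 1 in the opposite one. Fewer kept the sign at P42 than at P10. Of the 52 genes higher in the Cb at P7, 36 had a value above 0 at P42, and of the 11 lower ones 5 had a value below 0. At all 3 ages, 10 genes were called in the same direction, among them Apoe, Apoc1, Igf1, Clec7a, Cd74, Nceh1, Lyz2 and Anxa5 higher in the Cb and Khdrbs3 lower. The log2 fold change of Apoe was 2.25 at P7, 2.46 at P10 and 1.89 at P42, and that of Khdrbs3 -1.66, -1.27 and -2.28. The difference between ages did not pass for either gene. Gpnmb was at 5.78 at P10 (adjusted p = 0.0017) and 2.92 at P42 (adjusted p = 0.086). Like fold changes stood at unlike levels. The Gpnmb mean was 221 CPM in the Cb and 4.52 CPM in the Cx at P7, and 13.7 and 0.253 CPM at P10. The Apoe means were 13587 and 2847 CPM at P7, and 958 and 258 CPM at P42. Apoc1 at P42 had 0.690 CPM in the Cb and 0.0154 CPM in the Cx. Of the 63 genes, 37 were called at P7 alone of the 3 ages, Spp1 among them, whose log2 fold change was 1.53 ± 0.62 at P10 and 2.68 ± 0.68 at P42 (adjusted p 0.47 and 0.021). That difference between ages did not pass a test (adjusted p 0.12 against P10 and 0.17 against P42). Leaving out Cx replicate 3 of P10 lowered the 23 to 15.

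Tested directly, the regional difference at P7 and at P10 differed in no gene past both limits with edgeR (0% of genes), while 5.52% of genes had an unadjusted p under 0.05. limma-voom called 4 genes, DESeq2 2 and limma-trend 5. At an adjusted p of 0.05, 14 genes differed between the ages (0.0669%), 13 of them with the larger value at P7. Among the 13 were the lysosomal genes Ctsd, Ctsl, Ctsb, Grn, Hexa and Npc1, the phospholipase D family member Pld3, Soat1, Slc16a3 and the iron exporter Slc40a1. The mean of Ctsd was 15355 CPM in the Cb and 7867 CPM in the Cx at P7, and 11310.1 and 10669 CPM at P10. Its log2 fold change between the regions was thus 0.96 at P7 and 0.08 at P10, with a difference of 0.88 ± 0.10 (adjusted p = 7.1e-05). For Ctsl the difference was 0.77 ± 0.10 (adjusted p = 0.00014), and for Grn 0.65 ± 0.09 (adjusted p = 0.00062). In Ctsd the Cb mean was lower and the Cx mean higher at P10 than at P7. Genes of this test were chosen after their values were seen.

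Between P7 and P42 the regional difference changed past both limits in 100 genes (0.478%), and 22 of them were called at P7. In 17 the value was larger at P7 (0.282% of all genes) and in 5 it was lower (0.196%). Lag3 turned around: its mean was 56.4 CPM in the Cb and 11.4 CPM in the Cx at P7, and 21.1 and 55.8 CPM at P42, where the Cx was higher (log2 fold change -1.40 ± 0.18, difference between ages 3.71 ± 0.27, adjusted p = 5.3e-10). For the exporters the difference between ages passed too. Abcg1 went from 2.01 to -0.71 (difference 2.72 ± 0.17, adjusted p = 3.6e-11), and its P42 value passed at 0.05 but stayed under the fold limit (adjusted p = 0.00015). Abca1 went from 1.62 to -0.61 (difference 2.22 ± 0.27, adjusted p = 5.7e-06), and its P42 value did not pass (adjusted p = 0.053). On the falling arm, Srebf2 went from -1.63 at P7 to 0.61 at P42, a difference of -2.24 ± 0.28 (adjusted p = 6.4e-06), and Cyp51 from -1.53 to 0.71 (difference -2.24 ± 0.44, adjusted p = 0.0033). The P42 values of Srebf2 and Cyp51 did not pass on their own (adjusted p 0.058 and 0.21). The medians of the lists were 1.64, 1.07 and 0.69 at P7, P10 and P42 for the axon tract genes, 0.45, 0.03 and 0.12 for the lysosome, -0.78, -0.19 and -0.01 for sterol synthesis and -1.001, -0.57 and -0.15 for cell division. The medians of all genes tested were -0.01, -0.02 and 0.02.

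**Figure D5:**
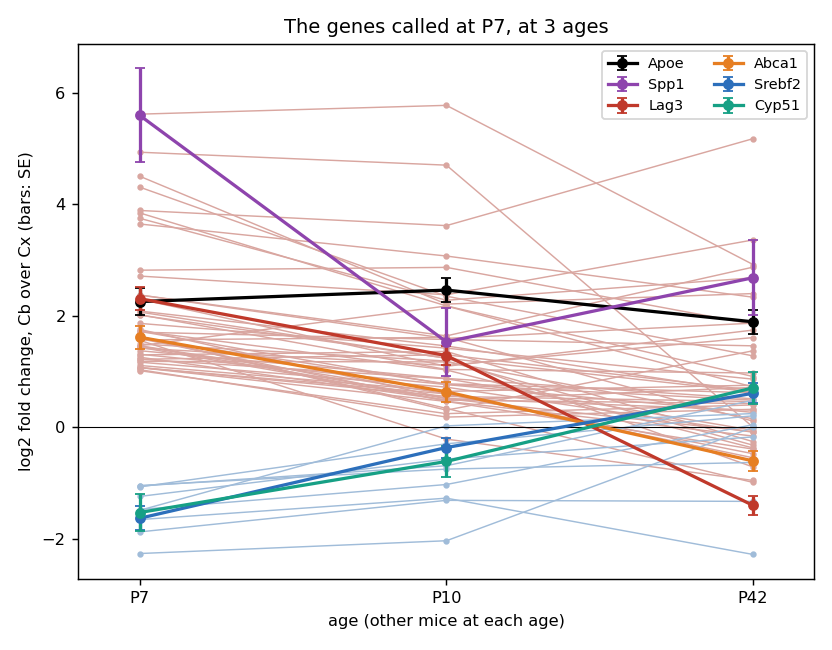
Log2 fold change between the Cb and Cx (vertical axis) at P7, P10 and P42 (horizontal axis, other mice at each age) for the 63 genes called at P7, light red where higher and light blue where lower in the Cb at P7. Coloured lines with bars (SE of the fit) mark 6 genes. Apoe stays near 2, Spp1 falls from 5.60 to 1.53 at P10, Lag3 ends below 0, and Srebf2 and Cyp51 end above 0 at P42 values that did not pass.

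The CC at P7 was set beside both regions. Cb and CC microglia differed in 15 genes (0.0717%), 14 of them higher in the Cb (0.0669%), and CC and Cx microglia in 138 (0.660%). The 15 became 7 without Cb replicate 1 or CC replicate 3, 8 without Cb replicate 2, 9 without CC replicate 1, and 38 to 54 with the other tools. These comparisons share their Cb, Cx or CC libraries with the one above, so the values are given side by side. Spp1 had a mean of 88.6 CPM in the Cx, 4289 in the Cb and 8529 in the CC. Gpnmb was at 4.52, 221 and 828 CPM, and Slpi at 0.599, 18.7 and 152 CPM. In each of these genes the Cb lay between the other regions, but the difference from the CC did not pass (adjusted p 0.78, 0.51 and 0.1). Most of the genes called higher in the Cb than in the Cx were also called higher in the CC than in the Cx (40 of 52). Of the 11 called lower, 4 were also called lower in the CC. Both comparisons use the same Cx libraries. Of the 63 genes, 4 were called higher in the Cb than in the CC: Cd74, Rtp4, Cd34 and Klk8. Cd74 had 14.7 CPM in the Cx, 104 in the Cb and 26.8 in the CC (Cb over CC 1.95 ± 0.37, adjusted p = 0.0061). Cd34 had 90.8, 217 and 84.4 CPM, and Rtp4 17.1, 52.9 and 15.7 CPM. Klk8, a serine protease, had 6.59, 15.0 and 6.31 CPM. Without Cb replicate 1, Cx replicate 1 or Cx replicate 3, Klk8 was not called between the Cb and Cx (adjusted p 0.012 to 0.048). In these 4 genes the CC means lay closer to those of the Cx than to those of the Cb. Among the exporters, Abca1 had 638 CPM in the CC and Abcg1 228 CPM, near the Cb means of 682 and 263 CPM. Srebf2 had 47.9 CPM in the CC, between the Cb (33.0 CPM) and the Cx (102 CPM). None of these 3 passed between the Cb and CC (adjusted p 1, 0.71 and 0.43).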

How the data were processed

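RNA of sorted microglia was reverse transcribed with a SMARTer Ultra Low Input kit, which does not mark strand, and sequenced after Nextera XT preparation. The authors aligned reads with STAR (2.5.2b) to GRCm38 and counted them per gene with featureCounts (1.6.2), leaving out reads with several alignments and those that overlapped more than 1 gene, and deposited the raw counts in 1 table. All 33 columns were assigned to a sample by name. Their methods name limma-voom, which was run as an alternative here.

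The 17212 of 48587 genes without reads were dropped, then the 10458 of the rest with the lowest summed count (at most 26 reads over 33 libraries), which left 20917. The 92 spike-in sequences were left out of library sizes and tests. Counts were fitted with edgeR (4.0.16, R 4.3.3) by quasi-likelihood over all 9 groups of region and age, with TMM factors, and p-values were adjusted by Benjamini-Hochberg over all genes tested. Every adjusted p in the text comes from this fit unless another tool is named. A gene was called at an adjusted p of 0.01 or less with a log2 fold change of 1 or more in either direction, and list members were counted at 0.05. The standard error (SE) is that of the log2 fold change implied by the F statistic. The difference between ages is the contrast of the regional contrasts.

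The groups, gene lists and tests were chosen with earlier results of these data known. Called genes were named if they were among the 15 largest increases or 10 largest decreases with a mean of 10 CPM or more and no overlap, belonged to a gene list, or differed between ages. Other genes were chosen after their values were seen, Ctsd and Grn among them where they are discussed by age. Alternatives were limma-voom and limma-trend (limma 3.58.1), DESeq2 (1.42.0), other size factors and filters, sex as a covariate, a replicate block, only the groups compared, and leaving out each library. limma-trend was added after seeing the data. The fits were tested on simulated data. Values of a few genes are not reported here, although counts over lists include them. Promoter sequences are RefSeq's for GRCm38.p6.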

Additional observations from a re-analysis of the deposited data

Results flagged for a closer look

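For 22 genes called at P7, 21 of which are listed, the difference between the Cb and Cx at P7 was itself unlike that at P42 by a direct test of the difference (edgeR, adjusted p of 0.01 or less, log2 difference of 1 or more in size). In 17 of them the log2 fold change at P7 was the larger. Among receptors and surface proteins, the P7 value exceeded the P42 value by 3.71 for Lag3 and 3.03 for Itgax. For the sterol exporters it was larger by 2.72 (Abcg1) and 2.22 (Abca1). The interferon-induced genes Rtp4 and Ifitm3 differed by 2.62 and 2.01, the chemokines Ccl9 and Ccl6 by 1.82 and 1.46, and the protease inhibitors Cst7 and Serpine2 by 2.10 and 1.28. For genes of energy metabolism the difference was 1.75 (Bnip3), 1.54 (Aldoa) and 1.45 (Slc16a3). Tmem8c (2.52), the phospholipase D family member Pld3 (1.54) and the galectin-3 ligand Lgals3bp (1.46) complete the 16 listed here.

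In the other 5 genes the log2 fold change at P7 was the lower. The difference was -2.24 for Srebf2 and -2.24 for Cyp51, both of sterol synthesis, -1.74 for Ccnd1, -1.54 for Tgfbi and -1.52 for Igfbp4. The mice of the ages are not the same, and age and the day of collection cannot be told apart.

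The table also holds 92 spike-in sequences that no comparison uses. The 6 libraries had 8 to 19 reads on them.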

How the results depend on the processing

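The number of genes called between the Cb and Cx at P7 (63, with 52 higher and 11 lower) rose to 137 with limma-voom (83 higher and 54 lower), 110 with limma-trend (94 higher), 112 with DESeq2 (91 and 21) and 127 in the fit of only the 6 libraries (85 and 42). The share that was higher in the Cb was thus 60.6% with limma-voom and 66.9% with only the 6 libraries, against 82.5%. Without each P7 library of the Cb or Cx in turn, 46 to 53 genes were called, 40 to 47 higher and 4 to 6 lower. All 63 genes kept their direction under every alternative, which their lack of overlap made nearly certain beforehand. With limma-voom 14 of the 63 lost the call, Spp1 and Apoe among them. The weight that limma-voom gave to single libraries of Apoe reached 6.78e+07 (lowest 42.7), against a median over genes of 1.35 for the highest weight, and limma-trend, which uses no such weights, called both genes. The test of P7 against P10 called 0 genes here, 4 with limma-voom, 5 with limma-trend, 2 with DESeq2, 1 with only the groups compared, and 0 to 2 without each library (1 without Cb P10 replicate 3 and 2 without Cx P7 replicate 2). DESeq2 called 243 genes in the test of P7 against P42 (100 here), and 40 and 20 of the 63 genes again at P10 and P42 (23 and 13 here). Without each library the genes called again at P10 numbered 15 to 23. The 15 genes of the Cb against the CC became 52 with limma-voom, 54 with limma-trend and 38 with DESeq2, and 7 to 12 without each library, with 7 without Cb replicate 1 or CC replicate 3. The cause of these shifts was not tested. Same-numbered Cb and Cx libraries of P7 carry the same sex label. They correlated at 0.031, -0.022 and 0.054 in their deviations from the group means (10086 genes), and libraries of unlike number at -0.056 to 0.031. With 3 libraries a side, these values cannot show whether a number stands for the same mouse. The main fit did not take the numbers as pairs. With the replicate block, 60 genes were called, 53 of them among the 63, and Slpi, Cyp51, Msmo1, Fabp5 and Ifitm3 were among the 10 lost. RLE factors (66 genes), filterByExpr (74), no filter (68) and sex as a covariate (62) stayed near the 63. Of the 63 genes, 60 had a mean of 10 CPM or more in the higher group.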

Other observations

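The values at P7 of a further 15 of the 63 called genes, all higher in the Cb, are given here. Pld3, Tmem8c and Lgals3bp were already named for their differences between ages, and genes outside the naming rule were chosen after their values were seen. Several act on membranes or the cell surface. Ank, a transporter of pyrophosphate and citrate, was at 144, 143 and 150.2 CPM in the Cb and 23.4, 34.9 and 44.8 CPM in the Cx (log2 fold change 2.08 ± 0.27 (SE), adjusted p = 1.0e-05), and Kcnma1, the pore of the BK potassium channel, at 20.4, 22.4 and 10.1 CPM in the Cb and 6.84, 3.56 and 2.63 CPM in the Cx (log2 fold change 2.02 ± 0.41 (SE), adjusted p = 0.0049). Sdc4, a heparan sulphate proteoglycan, had 98.8, 111 and 80.3 CPM in the Cb and 32.0, 43.7 and 49.0 CPM in the Cx (log2 fold change 1.22 ± 0.18 (SE), adjusted p = 8.1e-05). Chst2 and Chst1, which add sulphate to glycans, had log2 fold changes of 3.85 ± 0.72 and 1.63 ± 0.34, at means of 8.38 and 26.0 CPM in the Cb. The inhibitory receptor Pirb (1.86 ± 0.38), the focal adhesion protein Tns1 (1.72 ± 0.36) and Fam26f (1.30 ± 0.26) rose by like amounts.

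Enzymes and secreted proteins made up most of the rest. Pld3, a lysosomal nuclease of the phospholipase D family, was at 692, 659 and 785 CPM in the Cb and 265, 299 and 214 CPM in the Cx (log2 fold change 1.46 ± 0.13 (SE), adjusted p = 6.2e-09), and Lgals3bp, a secreted ligand of galectin-3, at 329.6 to 398 CPM in the Cb and 166 to 191 CPM in the Cx (log2 fold change 1.07 ± 0.13 (SE), adjusted p = 2.2e-06). Ephx1, an epoxide hydrolase, had 30.1, 41.7 and 52.1 CPM in the Cb and 11.7, 14.5 and 14.9 CPM in the Cx (log2 fold change 1.59 ± 0.29 (SE), adjusted p = 0.0012), Fam46c 70.0, 59.3 and 68.4 CPM in the Cb and 22.9, 22.0 and 28.2 CPM in the Cx (log2 fold change 1.43 ± 0.16 (SE), adjusted p = 1.1e-06) and Padi2, which converts arginine to citrulline, 29.4, 29.9 and 38.8 CPM in the Cb and 18.8, 11.8 and 13.0 CPM in the Cx (log2 fold change 1.17 ± 0.25 (SE), adjusted p = 0.0073). Pde8b, a cyclic AMP phosphodiesterase (1.37 ± 0.28), and Tmem8c, a protein of myoblast fusion (1.56 ± 0.31), complete the list. Ank, Sdc4, Pld3, Lgals3bp and Fam46c kept the call without each of the 6 libraries. Ephx1 lost it without Cb replicate 3 or Cx replicate 1 (adjusted p 0.012 to 0.014), Chst2 without any 1 Cx library (0.018), and the other 8 genes without 3 or more of the libraries (Tns1 without each of the 6, adjusted p 0.013 to 0.058).

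The promoters of interferon-induced genes were searched on both strands for the core of the interferon-stimulated response element. Of 19 such genes for which RefSeq gives a promoter, 10 held it in the 250 bases before the start, against 3.26% of the tested genes and 2 of the 41 genes called higher. The match describes the list, of which 3 genes passed the test at P7.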
